A study of Mus musculus with 8 samples.

Results

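AP-1 is a family of dimeric transcription factors built from Fos-type and Jun-type proteins, and the members described here are the 7 mouse genes that encode its classical subunits. They were taken by name, Fos, Fosb, Fosl1 and Fosl2 for the Fos family and Jun, Junb and Jund for the Jun family, and all 7 were found among the 30731 genes present in the count tables of both cell lines. The data are RNA-seq gene counts from 8 libraries, 2 for each of 4 groups. NIH-3T3 mouse embryonic fibroblasts had TCF-1 induced (genotype Tcf7 induced) or were normal cells (genotype wild type), and Scid.adh cells, a thymic lymphoma line that resembles the DN3 stage of T cell precursors, had a Tcf7-/- genotype or carried an empty vector. TCF-1, the product of Tcf7, is an HMG-box protein that T cell precursors need in order to develop.

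Several features limit these groups as models. The file headers of all 4 fibroblast libraries name Cas9, an empty LRG21 and pIND21, with a time of 72 hours, and doxycycline appears only in the headers of the 2 induced libraries, so the drug and TCF-1 cannot be told apart as the source of a change. The labels do not say whether the knockout line is 1 clone or a pool. Nor do they tell separate cultures from repeat libraries of 1 culture, so the spread behind each p-value may be technical only. Total gene counts were 16857868 and 13850213 in induced and 16174002 and 17523677 in normal fibroblasts, and 7740198 and 8217933 in knockout and 10392402 and 9847239 in empty-vector Scid.adh cells. Tcf7 itself stood at 945.9 and 971.5 read counts scaled to library size (CPM) in induced and 14.45 and 14.65 CPM in normal fibroblasts, and at 646.4 and 624.5 CPM in knockout and 1318 and 1325 CPM in empty-vector cells, so the knockout libraries kept Tcf7 transcripts. All 8 fibroblast markers exceeded 1 CPM in every 3T3 library. In every Scid.adh library 9 of 10 T-lineage markers did so, with Rag2 below that level.

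Fos and Jun proteins join through a leucine zipper and bind DNA through the basic region beside it, on the sequence TGACTCA or the related TGACNTCA. Jun proteins can pair with each other, whereas Fos proteins need a Jun partner. Fos, Fosb, Jun and Junb are immediate early genes, switched on within minutes by growth factors and stress through the MAP kinases, while Fosl1 and Fosl2 follow later and Jund is expressed more steadily. In fibroblasts AP-1 carries the response to serum and wounding, and in T cells it joins NFAT at cytokine genes after activation.

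The windows just upstream of 4 subunit genes are shown because these genes cover the whole range of response in the fibroblasts, with Fosb changing most and Junb least among those that passed the test. Each is the 250 bases before the RefSeq start (GRCm38.p6), written 5′ to 3′ on the strand of the gene, and capitals mark matches to the motifs searched.
Fosb, chr7:19310046-19310295, minus strand: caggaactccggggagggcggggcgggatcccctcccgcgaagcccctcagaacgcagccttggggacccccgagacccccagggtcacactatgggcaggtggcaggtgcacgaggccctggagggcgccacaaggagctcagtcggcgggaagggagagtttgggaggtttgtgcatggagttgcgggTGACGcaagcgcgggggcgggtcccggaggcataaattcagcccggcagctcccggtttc
Jun, chr4:95052223-95052472, minus strand: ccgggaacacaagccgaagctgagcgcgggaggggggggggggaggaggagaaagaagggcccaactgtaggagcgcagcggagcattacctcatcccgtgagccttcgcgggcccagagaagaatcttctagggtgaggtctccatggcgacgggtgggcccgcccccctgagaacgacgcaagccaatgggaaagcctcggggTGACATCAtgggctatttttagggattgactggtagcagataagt
Fos, chr12:85473640-85473889, plus strand: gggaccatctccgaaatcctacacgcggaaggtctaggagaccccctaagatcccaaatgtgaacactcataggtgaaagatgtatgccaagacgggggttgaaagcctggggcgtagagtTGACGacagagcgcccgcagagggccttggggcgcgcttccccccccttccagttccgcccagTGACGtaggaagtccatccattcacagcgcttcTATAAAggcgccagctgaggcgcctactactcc
Junb, chr8:84978749-84978998, minus strand: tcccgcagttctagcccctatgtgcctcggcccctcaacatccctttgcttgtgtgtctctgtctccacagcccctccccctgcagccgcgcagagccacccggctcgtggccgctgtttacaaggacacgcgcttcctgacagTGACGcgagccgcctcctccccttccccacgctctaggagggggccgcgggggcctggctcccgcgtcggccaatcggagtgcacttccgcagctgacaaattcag
The motifs, searched on both strands, were TGACTCA and the related TGACNTCA, the shorter TGACG (which a TGACNTCA match can contain), the CArG box bound by SRF, the TATA element TATAAA, and the core bound by TCF-1. The core was spelled with the ending T after an A as CTTTGAT and after a T as CTTTGTT, or with the ending A in the same places as CTTTGAA and lastly as CTTTGTA. The Fos window held TGACG at 129 and 66 bases before the start and TATAAA at 33 bases. Fosb held TGACG at 60 bases, Junb held it at 106 bases, and Jun held TGACATCA at 45 bases before its start. Over 32851 windows of the same length, TGACG occurred in 17.8%, TATAAA in 12.4%, TGACNTCA in 7.49%, TGACTCA in 4.46%, the CArG box in 1.47% and a TCF-1 core in 14.8%. No TCF-1 core, TGACTCA or CArG box was found in these 4 windows. Sites further than 250 bases before the start were not searched, so these genes may carry them there. Fosl2 and Jund had no match of any kind, but their RefSeq starts lie 671 and 1210 bases from the GENCODE starts of these genes, and Fosl1 had no window.

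Induction of TCF-1 in fibroblasts came with lower transcript levels of 6 of the 7 subunits, and none rose. Fosb, Jun, Fos, Fosl2 and Fosl1 stood at 35.07% to 62.4% of their level in normal cells, whereas Junb kept 91.9%, and Jund did not pass the test. Across all 18185 genes tested in this line, 18.3% were called lower and 18.5% higher at an edgeR adjusted p under 0.05. All 7 subunits averaged between 100 and 1000 CPM, and 37.8% of the 2359 genes tested at that level were called lower and 27.0% higher.

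Fos encodes c-Fos, the founding Fos protein and a strong activator when paired with Jun. It stood at 274.8 and 274.1 CPM in induced cells, against 486.7 CPM in both normal libraries. The groups were well apart, and the change was -0.83 on the log2 scale (SE 0.03, edgeR adjusted p = 2.74e-24). Fosb, whose product resembles c-Fos and which also gives a shorter protein by splicing, stood at 87.05 and 83.18 CPM in induced cells, against 240.2 and 245.1 CPM in normal cells. Its log2 fold change of -1.51 (SE 0.04, edgeR adjusted p = 3.01e-30) was the largest in size of the 7 subunits, and 1.99% of all tested genes changed by more. Gene counts do not separate its splice forms.

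Fosl1 and Fosl2 encode the Fos-related antigens, which lack the strong activation domain of c-Fos. Fosl1 stood at 117.4 and 121.1 CPM in induced cells, against 192.4 and 189.9 CPM in normal cells. Fosl2 stood at 322.2 and 313.5 CPM in induced cells, against 517.6 and 510.6 CPM in normal cells. Both fell by similar amounts, Fosl1 by 0.68 (SE 0.04, edgeR adjusted p = 5.61e-18) and Fosl2 by 0.69 (SE 0.03, edgeR adjusted p = 1.19e-21) on the log2 scale, and the libraries of the groups did not overlap for either. When tested against a change of 1.5-fold instead of 0, Fosl1 missed the threshold (edgeR adjusted p = 0.0656).

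The Jun family divided in this line. Jun encodes c-Jun, the main target of the kinase JNK and the strongest activator of the family, and it stood at 198.0 and 188.6 CPM in induced cells, against 363.9 and 356.6 CPM in normal cells. Its log2 fold change was -0.90 (SE 0.04, edgeR adjusted p = 3.64e-24). Junb, whose product activates more weakly and can oppose c-Jun, stood at 261.9 and 256.1 CPM in induced cells, against 285.3 and 278.3 CPM in normal cells. That small difference passed the test (log2 fold change -0.12, SE 0.04, edgeR adjusted p = 0.00744), but the call was lost without normal library 1 (adjusted p = 0.223) or normal library 2 (adjusted p = 0.0836). Jund, which is linked to quiescence and slow growth, stood at 124.7 and 108.1 CPM in induced cells, against 123.9 and 124.2 CPM in normal cells. Its groups overlapped, with induced library 1 above both normal libraries and induced library 2 below them (log2 fold change -0.09, SE 0.05, edgeR adjusted p = 0.185). Without induced library 1 Jund was called lower (-0.19, adjusted p = 0.000165), and without induced library 2 the sign turned (0.00705).

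**Figure D1:**
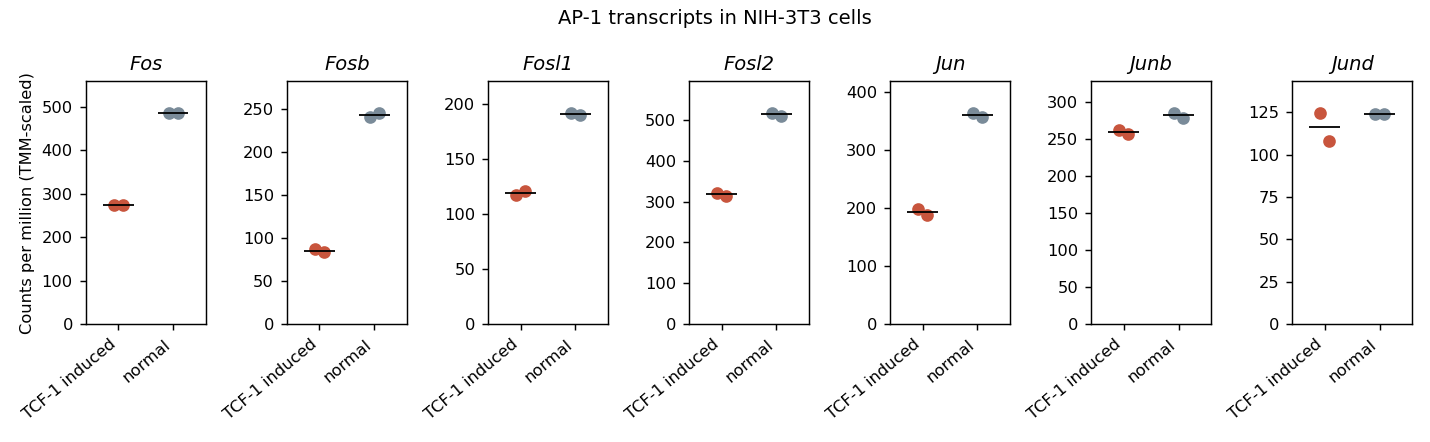
Read counts scaled to library size (CPM) of each AP-1 subunit in NIH-3T3 libraries, with TCF-1-induced cells at the left of each panel and normal cells at the right (points, libraries; line, mean of 2; each axis starts at 0). Fosb fell to 85.1 CPM against 243 CPM in normal cells, while the induced Jund libraries lie on both sides of the normal ones.

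These falls changed the make-up of the AP-1 transcript pool. Levels of different genes were compared as CPM per kilobase of exon, since counts grow with transcript length. With this length Fos ranked first in both groups, at 116.7 ± 0.211 CPM per kilobase in induced and 206.9 ± 0.00566 in normal fibroblasts (mean ± SD, n = 2 libraries each). Junb followed with 112.6 ± 1.77 in induced cells and 122.5 ± 2.17 in normal cells. Below them the order was Jund, Jun, Fosl1, Fosl2 and Fosb in induced cells, where the libraries of Jun and Fosl1 overlapped. In normal cells it was Jun, Fosl1, Jund, Fosl2 and Fosb, with no overlap between neighbours. These ranks depend on the length. With the longest transcript Junb stood above Fos in induced cells (143.2 against 130.2 CPM per kilobase) and below it in normal cells (155.8 against 230.9). With coding length Fosl2 ranked first in both groups, at 325.0 CPM per kilobase in induced and 525.7 in normal cells. Ranks of subunits that share bases with a gene on the opposite strand, such as Jund, also depend on how reads there were counted.

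Summed per kilobase, the 4 Fos-family transcripts came to 221.8 CPM per kilobase in induced and 392.9 in normal cells, and the 3 Jun-family transcripts to 243.0 in induced and 309.8 in normal cells. The Fos-family sum was thus at 56.46% of its normal level and the Jun-family sum at 78.42%. Fos-family transcripts made up 46.95% and 48.53% of the pool in the induced libraries, against 55.75% and 56.08% in the normal libraries. Within the Jun family, Junb and Jund together made up 75.23% and 74.87% in induced libraries, against 63.47% and 63.60% in normal libraries. These shares are descriptions without a test, and their size depends on the length used. With coding length the Fos-family share was 58.79% in induced and 65.41% in normal cells.

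In Scid.adh cells the subunits were scarce apart from Jund, and the knockout libraries held more of several of them. Jund and Junb rose in the knockout, none of the 5 subunits tested fell, and Fos and Jun had too few counts to enter the test. In this line 15.6% of 11941 tested genes were called higher and 15.9% lower. With upper-quartile scaling, calls over all genes split into 2455 higher and 1215 lower, against 1861 higher and 1899 lower with TMM.

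Jund was the leading subunit, at 36.48 and 36.20 CPM in knockout libraries, against 23.88 and 26.05 CPM with the empty vector. It rose by 0.54 on the log2 scale (SE 0.12, edgeR adjusted p = 0.00414), and the groups did not overlap. Junb stood at 9.61 and 6.41 CPM in the knockout, against 3.53 and 3.52 CPM with the empty vector. Its rise of 1.18 (SE 0.28, edgeR adjusted p = 0.0069) varied in the knockout, where library 1 was well above library 2. Neither passed when tested against 1.5-fold, with adjusted p = 0.0951 for Junb and 1 for Jund in edgeR.

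The remaining Jun-family member was close to absent. Jun had 5 and 3 counts in the knockout libraries, against 1 count in each empty-vector library. The ratio scaled to library size was 4.64, with a 95% counting interval of 0.925 to 44.8 that includes no change.

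Among the Fos family, Fos had 8 and 5 counts in the knockout, against 0 and 1 with the empty vector. This gave a ratio of 15.1 with a 95% counting interval of 2.26 to 640.1, which covers counting error only, as do all such intervals here. Within this line it entered the test only when the filter on low counts was dropped (edgeR adjusted p = 0.0356). Fosl1 stood at 2.43 and 4.27 CPM in the knockout, against 2.02 and 1.07 CPM with the empty vector. Its knockout libraries were both higher, by a log2 fold change of 1.11 (SE 0.42), but it missed the threshold (edgeR adjusted p = 0.0605). Leaving out single libraries moved that change between 0.65, without knockout library 2 (adjusted p = 0.37), and 1.63, without empty-vector library 1 (adjusted p = 0.0355). It passed with upper-quartile scaling (adjusted p = 0.0458), with the replicate number as a block (0.0311), in the joint fit (0.00977) and without knockout library 1 (0.00864), but missed with DESeq2 (0.217), without the filter on low counts (0.118) and without empty-vector library 2 (0.322).

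Fosb stood at 2.92 and 3.09 CPM in the knockout, against 1.713 and 1.602 CPM with the empty vector, a log2 fold change of 0.85 (SE 0.35, edgeR adjusted p = 0.0826). The joint fit called it higher (edgeR adjusted p = 0.0318), but that fit pools the spread of both lines. The same holds for the joint-fit call of Fosl1. Fosl2 was the sole subunit with a lower mean in the knockout, at 2.43 and 3.68 CPM, against 4.13 and 3.52 CPM with the empty vector. Its groups overlapped, and it did not pass the test (log2 fold change -0.32, SE 0.32, edgeR adjusted p = 0.478).

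Other measures moved with these results in Scid.adh. Genes averaging 1 to 10 CPM, the level of Fosb, Fosl1, Fosl2 and Junb, had a median log2 fold change of 0.34 over 3624 genes, with 25.4% called higher and 5.71% lower. At 10 to 100 CPM, the level of Jund, the median was -0.04 over 5422 genes, with 10.4% called higher and 15.1% lower. Protein-coding genes with at least 1 count numbered 17083 and 17066 in knockout libraries, against 15439 and 15422 in empty-vector libraries, although the knockout libraries were shallower. Reads that the counting assigned to no feature made up 22.3% and 25.8% in the knockout and 21.3% and 21.6% with the empty vector. Where in the genome these reads lie was not examined. The part of these shifts in the rises of Junb, Fosb, Fosl1 and Fos was not tested.

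Markers of other cells were low in this line, apart from Pdgfrb with the empty vector. B-lineage markers summed to 1.094 and 0.593 CPM in the knockout and 0.705 and 0.747 CPM with the empty vector. Epithelial markers summed to 5.593 and 3.679 CPM in the knockout and 4.937 and 4.805 CPM with the empty vector. The 8 fibroblast markers summed to 11.8 and 11.2 CPM in the knockout, against 121.7 and 126.7 CPM with the empty vector, where Pdgfrb alone held 119.7 and 125.1 CPM and Col3a1, Lum and Dcn were at 0. Pdgfrb stood at 4.38 and 3.80 CPM in the knockout. Lum and Dcn were each at 0 in 1 knockout library and at 0.12 CPM in the other. The remaining fibroblast markers were higher in the knockout at low levels, with Col1a1 at 1.824 and 1.661 CPM, against 0.403 and 0.320 CPM with the empty vector. Pdgfra stood at 1.824 and 1.78 CPM in the knockout, against 0.302 and 0.427 CPM with the empty vector, and Col1a2 at 2.432 and 2.255 CPM in the knockout, against 0.806 and 0.534 CPM with the empty vector. The markers above 1 CPM numbered 4 and 5 of 8 in the knockout libraries, against 1 of 8 in each empty-vector library. Myeloid markers (Cd68, Csf1r, Lyz2 and Itgam) summed to 9.97 and 11.04 CPM in the knockout and 9.87 and 6.19 CPM with the empty vector, and the 10 T-lineage markers to 2829 and 2880 CPM in the knockout and 3794 and 3734 CPM with the empty vector. Their part in the AP-1 values was not tested, and in bulk RNA a change in the number of cells of a type and in RNA per cell cannot be told apart.

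**Figure D2:**
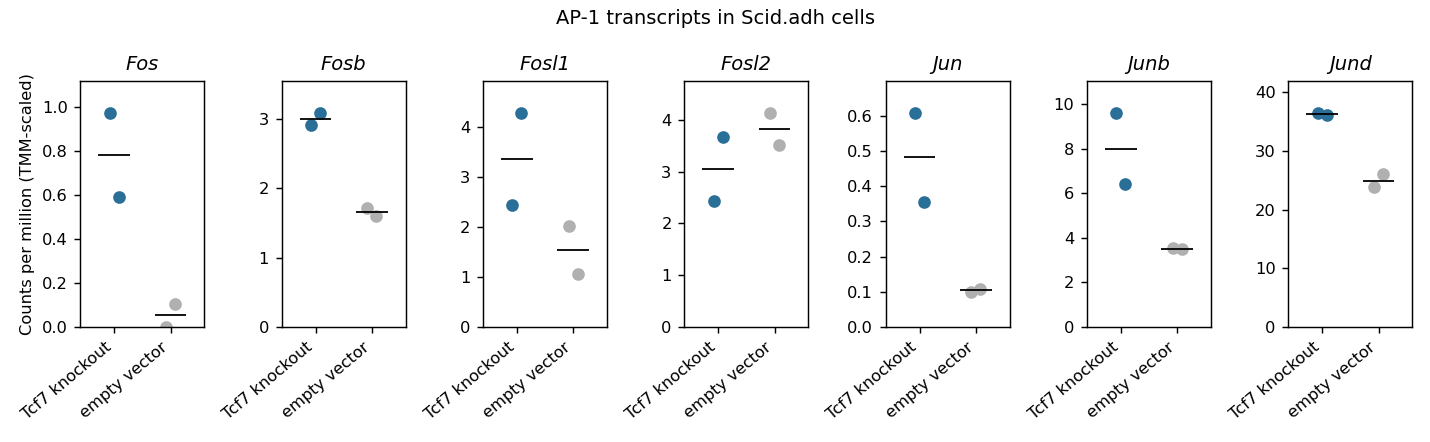
Read counts scaled to library size (CPM) of each AP-1 subunit in Scid.adh libraries, with Tcf7 knockout cells at the left of each panel and empty-vector cells at the right (points, libraries; line, mean of 2; each axis starts at 0 and has its own scale). The knockout libraries lie above the empty-vector ones for every subunit except Fosl2, but Fos and Jun rest on 8 counts or fewer per library.

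Per kilobase, the Scid.adh pool was mostly Jund, with 21.79 ± 0.12 CPM per kilobase in knockout and 14.97 ± 0.922 in empty-vector cells (mean ± SD, n = 2 each). Junb came second with 3.48 ± 0.983 in the knockout and 1.532 ± 0.000842 with the empty vector, followed by Fosl1 with 1.65 ± 0.64 in the knockout and 0.758 ± 0.33 with the empty vector. The remaining order was Fosb, Fos, Fosl2 and Jun in the knockout, where Fos and Fosl2 overlapped, and Fosl2, Fosb, Jun and Fos with the empty vector, where Jun and Fos overlapped. With coding length Jund still ranked first in both groups, but Fosl2 stood above Junb with the empty vector (3.913 against 3.416 CPM per kilobase). The 7 transcripts summed to 28.19 in the knockout and 17.97 with the empty vector. Junb and Jund made up 99.27% and 99.55% of the Jun family in knockout libraries, against 99.80% and 99.81% in empty-vector libraries. Fos-family shares were 8.15% and 11.6% in the knockout, against 9.63% and 6.48% with the empty vector, so the groups overlapped. The order of their means turned with coding length, at 19.9% in the knockout and 21.13% with the empty vector.

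**Figure D3:**
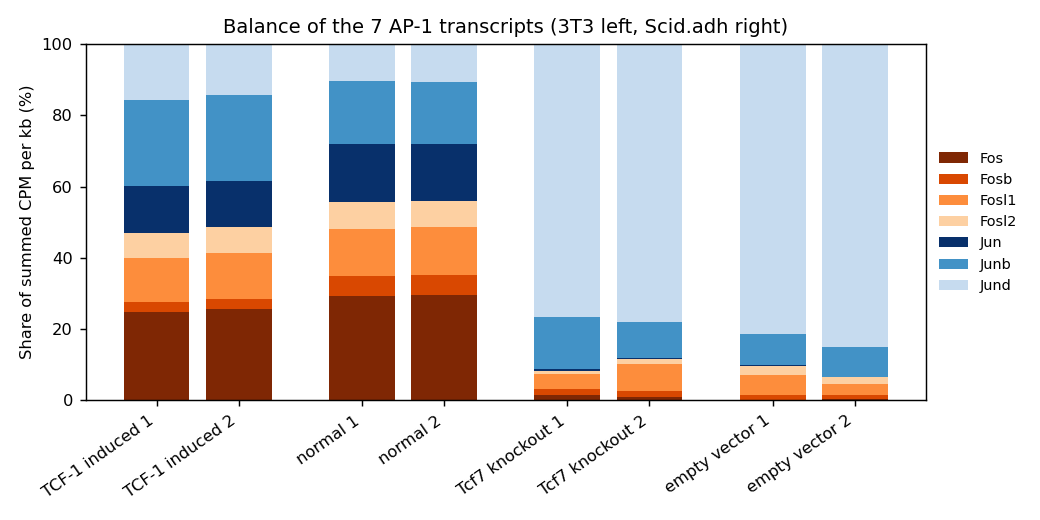
Share of each AP-1 subunit in the summed CPM per kilobase of the 7 transcripts, one bar per library (warm colours, Fos family; blue, Jun family), with the 3T3 groups at the left and the Scid.adh groups at the right. Fos-family transcripts made up 46.95% and 48.53% in induced and 55.75% and 56.08% in normal fibroblasts. Within Scid.adh, Jund filled most of every bar. Shares are read within each line and are not set against each other between lines.

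Setting the lines side by side, 4 of the 5 subunits tested in both lines changed differently after gain of TCF-1 in fibroblasts and after its loss in Scid.adh cells, in a joint edgeR fit where 30.7% of 15854 tested genes did so. The contrast is the change in induced over normal minus the change in knockout over empty vector. It sets gain against loss, so a subunit that responds alike to TCF-1 in both lines would also give a difference. Line and direction of the TCF-1 change cannot be told apart in it. Among these 5 it was largest in size for Fosb (log2 difference -2.36, SE 0.30, edgeR adjusted p = 2.55e-07). Fosl1 (-1.79, SE 0.33), Junb (-1.30, SE 0.21) and Jund (-0.63, SE 0.12) also passed, with edgeR adjusted p of 8.66e-05, 1.46e-05 and 0.000129. The joint fit pools the spread of both lines, which was smaller in 3T3 (common coefficient of variation 2.41%) than in Scid.adh (5.94%). The SE of Fosb, Fosl1 and Junb here were below those of their Scid.adh change alone (0.35, 0.42 and 0.28). Their p-values in this fit may therefore be too small. Fos and Jun entered this fit through their fibroblast counts alone, so no difference is given for them. Fosl2, with a lower mean in both contrasts, did not pass (-0.37, SE 0.24, approximate 95% interval from a normal distribution -0.84 to 0.11, edgeR adjusted p = 0.313). Levels were not compared between lines, which were counted on different gene tables.

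**Figure D4:**
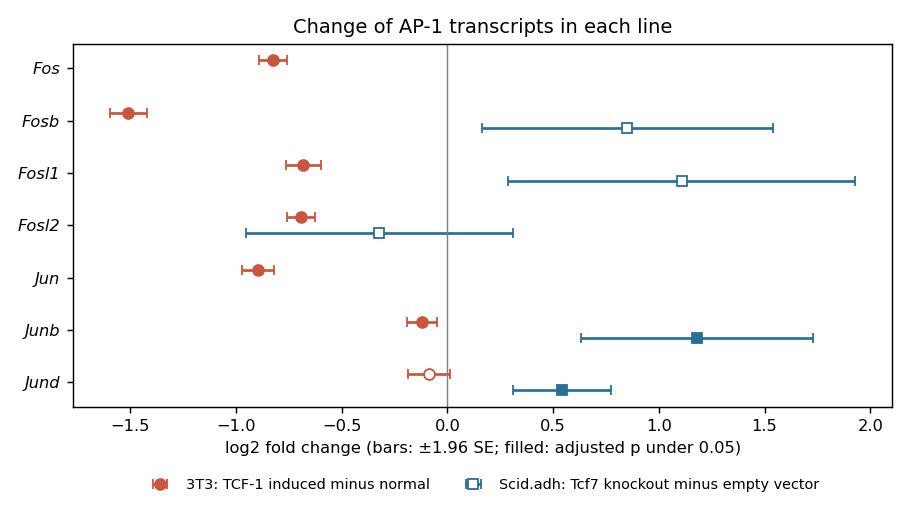
Log2 fold change of each AP-1 subunit in NIH-3T3 (circles, TCF-1 induced minus normal) and Scid.adh (squares, Tcf7 knockout minus empty vector), with filled symbols for an edgeR adjusted p under 0.05. Bars are approximate 95% intervals from the SE and a normal distribution, and are narrower than the F-test implies. In fibroblasts 6 of 7 subunits lie below 0 and passed, and in Scid.adh Junb (1.18) and Jund (0.54) lie above 0 and passed, while Fos and Jun were not tested there.

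Some subunit genes share exon bases with a gene on the opposite strand, and whether reads were counted by strand is not given in the sources used here. Reads from each gene of such a pair then cannot be told apart with certainty. Fosl1 shares 1163 bases with Ccdc85b, which did not pass in either line (log2 fold change -0.12 in 3T3 and 0.19 in Scid.adh). Jun shares 232 bases with the antisense gene Junos, which fell in induced fibroblasts to 7.78 and 8.79 CPM, against 18.3 and 15.6 CPM in normal cells (log2 fold change -1.04, edgeR adjusted p = 3.91e-10). Junb shares 173 bases with Prdx2, which rose in induced fibroblasts by 0.27 (edgeR adjusted p = 1.78e-06). Jund shares 877 bases with Gm11175, which held 81.4 and 69.9 CPM in induced and 77.1 and 79.3 CPM in normal fibroblasts but 0 counts in all 4 Scid.adh libraries. Whether the files of both lines were counted alike at this overlap was not tested. Jund levels are therefore not set against each other between lines. Within a line, the rank of Jund and the shares of the pool also depend on how reads in this overlap were counted.

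Of the wider bZIP family, whose members can pair with Jun or Fos or compete for their sites, 9 of 17 tested relatives fell and 1 rose in induced fibroblasts, with a median log2 fold change of -0.15 beside 0.00037 over all tested genes. Maf, a factor whose recognition site contains the AP-1 site, fell by 0.98 to 39.2 ± 1.17 CPM in induced cells, against 77.1 ± 0.986 CPM in normal cells. Bach1 and Bach2, repressors of such sites, fell by 0.60 and 0.49, and Nfe2l1, a regulator of proteasome genes, rose by 0.20. In Scid.adh 4 of 16 tested relatives rose and 3 fell, with a median of 0.18 beside -0.00389 over all tested genes. Maf rose there by 1.89 to 3.13 ± 0.393 CPM in the knockout, against 0.836 ± 0.328 CPM with the empty vector. It entered the test through its knockout libraries, as its empty-vector counts alone were too low for the filter. Jdp2, whose product dimerizes with Jun and represses, fell by 0.43 to 17.2 ± 0.211 CPM in the knockout, against 23.3 ± 2.12 CPM with the empty vector.

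The upstream MAP kinase cascade moved in both directions in induced fibroblasts, where 8 of 23 tested genes rose and 7 fell (median log2 fold change -0.04). Map3k5, a kinase of the stress branch, rose by 1.06 to 6.59 ± 1.08 CPM in induced cells, against 3.11 ± 0.0665 CPM in normal cells. Map2k6, an activator of p38, fell by 0.71 to 7.56 ± 0.113 CPM in induced cells, against 12.3 ± 0.653 CPM in normal cells. In Scid.adh none of 20 tested genes rose and Map2k3 and Hras fell, with Map2k3, another p38 activator, at 34.4 ± 1.87 CPM in the knockout, against 53.2 ± 4.38 CPM with the empty vector (log2 fold change -0.63). SRF and its cofactors, which switch on Fos and other immediate early genes, showed 3 falls and no rise among 6 tested genes in induced fibroblasts (median -0.03). Mrtfa, an actin-regulated SRF coactivator, was lower in both contrasts, by a log2 fold change of -0.45 in induced fibroblasts and -0.44 in knockout Scid.adh cells. Of 5 tested in Scid.adh (median 0.06), Elk3, an Ets-type SRF partner, rose by 1.06, although its knockout libraries spread widely (14.2 ± 6.30 CPM, against 6.79 ± 0.0879 CPM with the empty vector).

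Feedback inhibitors of MAP kinase signalling, which are themselves induced by it, fell in 7 of 14 cases and rose in 2 in induced fibroblasts (median -0.13). The phosphatase gene Dusp4 fell most, by 1.38 to 28.0 ± 1.52 CPM in induced cells, against 72.8 ± 2.01 CPM in normal cells. Dusp1, which inactivates p38 and JNK, fell by 0.80, and Spry4, an inhibitor of receptor signalling, rose by 0.78. In Scid.adh 2 of 9 rose and 2 fell (median -0.03), with Spry1, a relative of Spry4, higher by 2.14 at 2.10 ± 0.219 CPM in the knockout and 0.474 ± 0.386 CPM with the empty vector. Spry1 entered the test through its knockout libraries, as its empty-vector counts alone were too low for the filter. Dusp5, a phosphatase for nuclear ERK, fell by 1.37 to 3.00 ± 0.0516 CPM in the knockout, against 7.78 ± 0.0259 CPM with the empty vector.

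Regulators of AP-1 turnover and binding rose in 3 of 9 cases in induced fibroblasts, with none falling (median -0.03). Zfp36l1, which promotes decay of mRNAs with AU-rich elements, rose by 0.76 to 424 ± 16.6 CPM in induced cells, against 251 ± 2.30 CPM in normal cells, and its relative Zfp36l2 rose by 0.60. Cops5, also known as the Jun-activation-domain-binding protein Jab1, rose by 0.21. In Scid.adh none of 9 passed the test in either direction (median -0.00561), and the most abundant, Zfp36l2, stood at 182 CPM in the knockout and 183 CPM with the empty vector.

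Genes described as AP-1 targets moved in both directions in induced fibroblasts, where 7 of 17 tested rose and 7 fell (median -0.11). Il6, a cytokine gene, rose by 3.93 to 27.2 ± 2.95 CPM in induced cells, against 1.77 ± 0.234 CPM in normal cells. Mmp9, a matrix protease gene, rose by 1.86 and Ccnd1, the gene of cyclin D1, by 1.11. Ptgs2, the gene of the prostaglandin enzyme COX-2, fell by 1.37 to 211 ± 12.4 CPM in induced cells, against 543 ± 5.84 CPM in normal cells. Hbegf, a growth factor gene, fell by 1.12. In Scid.adh only 5 of the 21 listed genes could be tested (median -0.58). Of these Mmp9 rose by 0.59, and Ezr, the gene of the membrane-cytoskeleton linker ezrin, fell by 0.67 to 314 ± 3.78 CPM in the knockout, against 498 ± 21 CPM with the empty vector.

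Other immediate early genes fell in 9 of 17 cases and rose in 3 in induced fibroblasts (median -0.21). Over all tested genes 18.3% were called lower and 18.5% higher. At 100 to 1000 CPM, the level of several of these genes, 37.8% were called lower and 27.0% higher. Ier3, which limits cell death, fell most, by 1.11 to 60.4 ± 0.805 CPM in induced cells, against 131 ± 5.26 CPM in normal cells. Klf2, a Krüppel-like factor gene, fell by 0.95 and Myc by 0.71, while Ier5 rose by 0.37 to 142 ± 8.13 CPM in induced cells, against 110 ± 0.147 CPM in normal cells. In Scid.adh 5 of 13 rose and 2 fell (median 0.59). Klf2 rose there by 2.11 to 2.28 ± 0.209 CPM in the knockout, against 0.519 ± 0.0213 CPM with the empty vector, and Egr1 rose by 1.23 to 2.94 ± 0.0344 CPM, against 1.24 ± 0.389 CPM. Both entered the test through their knockout libraries, as their empty-vector counts alone were too low for the filter. At 1 to 10 CPM, 25.4% of tested genes were called higher in this line and 5.71% lower. Among better expressed members, Btg2, an antiproliferative gene, rose by 0.96 to 112 ± 2.24 CPM in the knockout, against 57.5 ± 1.33 CPM with the empty vector. Klf6 fell by 0.55 and Myc by 0.46.

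Calcineurin and the NFAT factors, partners of AP-1 in activated T cells, rose in 2 of 8 cases and fell in 2 in each line (median 0.08 in 3T3 and 0.03 in Scid.adh). Nfatc2 fell in knockout Scid.adh cells by 0.92 to 63.5 ± 5.53 CPM, against 121 ± 3.26 CPM with the empty vector, and Rcan1, a calcineurin inhibitor that NFAT induces, rose by 0.59 to 13.4 ± 0.825 CPM, against 8.88 ± 0.878 CPM. In induced fibroblasts Nfat5, which responds to osmotic stress and does not need calcineurin, fell by 0.49, and Ppp3ca, a catalytic subunit of calcineurin, rose by 0.23. The list medians and counts are descriptions beside all-gene calls of 18.5% higher and 18.3% lower in 3T3 and 15.6% higher and 15.9% lower in Scid.adh. In Scid.adh the rises counted include weak genes that entered the test through their knockout libraries.

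**Figure D5:**
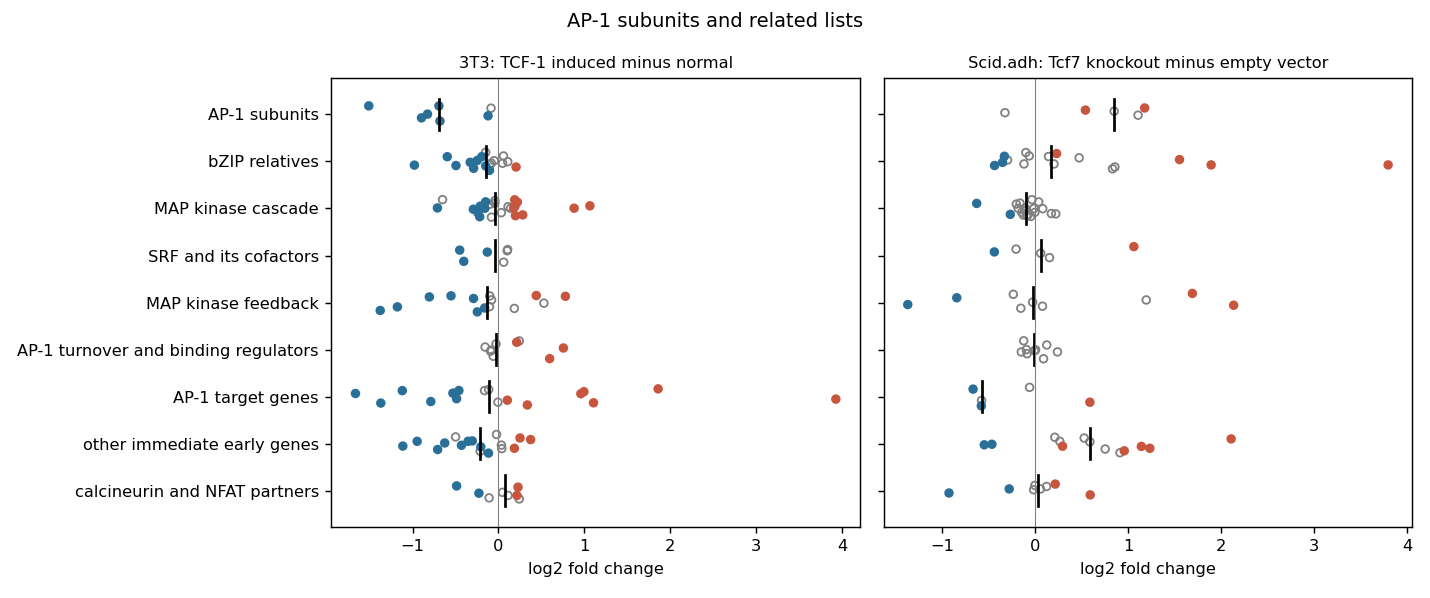
Log2 fold changes of tested genes in the AP-1 subunit list and 8 related lists, in NIH-3T3 (left, TCF-1 induced minus normal) and Scid.adh (right, Tcf7 knockout minus empty vector); red and blue points were called higher and lower at an edgeR adjusted p under 0.05, open points did not pass, and black bars are list medians. The AP-1 subunits have a median of -0.69 in fibroblasts and 0.85 over the 5 subunits tested in Scid.adh, whereas the medians of the other lists lie between -0.21 and 0.08 in fibroblasts and between -0.58 and 0.59 in Scid.adh, where the AP-1 median is the value of Fosb, which did not pass.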

How the data were processed

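Gene counts of 8 RNA-seq libraries were used as deposited by the authors, without rescaling. Per the labels' protocols, total RNA went into a stranded low-input kit (SMARTer Pico) and was read in pairs. The submitters' processing notes name STAR 2.5.0a, HTSeq 0.6.1 and GRCm38 (mm10), while the annotation, the use of strand and the removal of duplicates were not stated there. Summary lines of the Scid.adh files (shares in the report) were left out. The 3T3 files held no such lines, so it is not certain that the same program counted both lines.

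Each line was fitted over all genes with edgeR 4.0.16 in R 4.3.3 (filterByExpr, TMM, robust quasi-likelihood F-test, Benjamini-Hochberg adjustment, call at adjusted p under 0.05). A joint fit of 8 libraries tested the change after TCF-1 gain in 3T3 against that after its loss in Scid.adh. CPM use TMM library sizes, and lengths are unions of GENCODE M21 exons. The test was checked on simulated counts. Alternatives were DESeq2 1.42.0 and its size factors, upper-quartile scaling, limma-voom (limma 3.58.1), other filters, a replicate block, single libraries left out, the joint fit, a 1.5-fold test and other lengths. Replicate numbers did not pair libraries (r = 0.0124 in 3T3 and 0.00147 in Scid.adh). Between the 2 libraries of a group, chi-square per gene was 1.79 in induced and 1.15 in normal fibroblasts. It was 6.08 in knockout and 1.89 in empty-vector cells, so no library was a copy of another. These values do not tell separate cultures from repeat libraries of 1 culture.

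The subunits and lists were chosen with earlier results of these data known. Named genes are the subunits, Tcf7 and, per list and line, the most changed called gene in each direction with at least 1 CPM (or, with no call, the most abundant), beside overlapping and nearest tested genes and the 2 most similar patterns per subunit. Bach1, Bach2, Dusp1, Zfp36l2 and Cops5 in 3T3, Mmp9, Ccnd1, Hbegf, Klf2, Myc and, in Scid.adh, Egr1, Btg2, Hras and Myc were named after their values were seen. Sequences are from RefSeq (GRCm38.p6). Figures were drawn with matplotlib 3.10.9.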

Additional observations from a re-analysis of the deposited data

Results flagged for a closer look

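The changes of 4 of the 5 subunits tested in both lines differed between the lines in the joint edgeR fit, a difference also found for 30.7% of all 15854 tested genes. The adjusted p was 2.55e-07 for Fosb, 1.46e-05 for Junb, 8.66e-05 for Fosl1 and 0.000129 for Jund. These values may be too small, since the joint fit pools the spread of both lines. For Fosb, Fosl1 and Junb the mean was lower in induced than in normal fibroblasts and higher in knockout than in empty-vector Scid.adh cells. Jund differed through its rise in the knockout (log2 fold change 0.54), since its change in fibroblasts did not pass the test.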

How the results depend on the processing

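Fos, Fosb, Fosl2 and Jun were called lower in induced fibroblasts under all 13 alternatives run, and Junb and Jund were called higher in the knockout under all except the 1.5-fold test, which called 0 subunits higher. Of the 5 subunits tested in Scid.adh, the joint fit called 4 higher in the knockout, with Fosb and Fosl1 added. That fit pools the smaller spread of 3T3 with that of Scid.adh. Leaving out single libraries gave 5 to 7 subunits called lower in fibroblasts, and moved the Jund change between -0.19 and 0.00705. Junb also lost its fibroblast call in the joint fit (edgeR adjusted p = 0.0505) and the 1.5-fold test. Over all genes, DESeq2 called 1977 higher and 2035 lower in 3T3 and 880 higher and 1080 lower in Scid.adh. The 1.5-fold test called 480 higher and 437 lower in 3T3 and 565 higher and 159 lower in Scid.adh. Upper-quartile scaling called 1215 lower in Scid.adh. Leaving out single Scid.adh libraries gave 1059 to 1911 genes called higher and 1162 to 2321 lower, with the lowest counts without empty-vector library 1. The cause was not tested. With the replicate block, 6 subunits were lower in 3T3 (3633 genes higher and 3577 lower). In Scid.adh 3 were higher (2028 genes higher and 2010 lower), with Fosl1 the added call (edgeR adjusted p = 0.0311). The changes of 4785 genes then differed between the contrasts of the lines. The Fos-family share, 47.74% in induced and 55.92% in normal cells and 9.88% in knockout and 8.06% in empty-vector cells, depends on length. It was 58.79% in induced and 65.41% in normal cells with coding length, 49.25% and 58.12% with the longest transcript, and 58.36% and 65.19% without length. In Scid.adh it was 19.9% in knockout and 21.13% in empty-vector cells with coding length and 18.55% and 19.86% without length. With few counts of Fos and Jun in Scid.adh, changes of these genes there are not firmly measured.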

Other observations

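Among the nearest tested genes on each side of the subunits, Mysm1 beside Jun was the sole gene called lower in induced fibroblasts. Before and after are given here by chromosome coordinate, not by the strand of the subunit gene. Jdp2, a further bZIP gene 121754 bases after Fos, had a log2 fold change of 0.06 in induced fibroblasts (edgeR adjusted p = 0.497), and Tmed10 on the other side rose by 0.15 (edgeR adjusted p = 0.0133). Mysm1, a histone deubiquitinase gene 69934 bases before Jun, fell by 0.38 to 76.8 CPM in induced cells, against 99.9 CPM in normal cells (edgeR adjusted p = 2.8e-08). Ercc1, 34727 bases after Fosb, did not pass (log2 fold change -0.01). Around Jund in Scid.adh, Lsm4 did not pass (log2 fold change -0.20) and the weakly expressed Pde4c rose to 1.81 CPM in the knockout, against 0.465 CPM with the empty vector. Pde4c entered the test through its knockout libraries. Hook2, 11885 bases after Junb, rose to 9.56 CPM in the knockout, against 6.23 CPM with the empty vector (edgeR adjusted p = 0.0427).

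Over the 8 libraries, with log2 CPM centred on each line, the patterns most like those of the subunits among 7852 named coding genes were those of Slc6a8 (r = 0.991) and Pip5k1a (0.989) for Fos, and Tsc1 (0.995) and Btg1 (0.994) for Fosb. For Fosl1 they were Mtmr10 (0.990) and Rcbtb1 (0.988), for Fosl2 Zbtb21 (0.988) and Mettl7a1 (0.984), and for Jun Col8a1 (0.989) and Arl6ip1 (0.988). Junb was most like Rnf111 (0.986) and Homer3 (0.984), and Jund most like Smurf1 (0.988) and Gad2 (0.983). The 8 points fall into 4 groups, so these values describe shared group means. A like pattern can go with a much smaller change (Pip5k1a changed by -0.15 in 3T3, Rnf111 by -0.00012). For Fos and Jun the Scid.adh points rest on 8 counts or fewer per library, so their likeness there is not firmly measured.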
